A study of Mus musculus with 24 samples.

Results

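Described here are 9 genes that mark monocytes and macrophages, Ly6c2, Ccr2, Cx3cr1, Fcgr1, Cd68, Adgre1, Lyz2, Ctss and F13a1, in sorted stem and progenitor cells of mouse bone marrow. They were taken by symbol from count tables of 55376 genes, and all 9 have a row in each of the 24 libraries. TTPΔARE mice are homozygous for a deletion of an AU-rich element in the 3′ UTR of Zfp36, the gene of the mRNA decay protein tristetraprolin (TTP), in every cell of the body, and the controls are WT littermates. The deletion raises the stability of the Zfp36 transcript. All mice were untreated males. Young (Y) mice were 4 to 5 months old and middle-aged (M) mice 1 year old. The 6 groups are hematopoietic stem cells (HSCs, sorted as CD150+) from Y-WT mice (4 libraries), Y-TTPΔARE mice (4), M-WT mice (5) and M-TTPΔARE mice (3), and multipotent progenitors 3 (MPP3, biased to granulocytes and macrophages) from Y-WT mice (4) and Y-TTPΔARE mice (4). The labels do not say which libraries come from separate animals, so p-values measure the spread between these libraries, which may be technical.

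Monocytes arise in the marrow from granulocyte and monocyte progenitors, leave it for the blood and can become macrophages or dendritic cells in tissues. Classical monocytes carry Ly6C and the chemokine receptor CCR2, which guides their exit from the marrow, whereas non-classical monocytes lose both and carry much CX3CR1, the fractalkine receptor. TTP binds AU-rich sequence in 3′ UTRs, with the core UAUUUAU, and shortens the life of the bound mRNA.

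Because TTP acts through 3′ UTRs, the longest annotated 3′ UTR of each member (GENCODE M21, GRCm38) was searched for the letters TATTTAT and for the shorter ATTTA on the transcribed strand. Of 21006 protein-coding genes with a 3′ UTR, 27.6% hold TATTTAT and 65.2% hold ATTTA. Among the 9 members TATTTAT was found once, in the 3′ UTR of Ccr2 (2701 bases), whose first letter lies 920 bases after the stop codon. It is shown here in capitals within 30 bases, at chr9:124107715-124107744 on the plus strand.
Ccr2 3′ UTR: tccttacatgaTATTTATaaaattattgtt
The shorter ATTTA, which TATTTAT contains, occurs 8 times in Ccr2, 4 times in F13a1 (1587 bases), 2 times in Adgre1 (407 bases) and once each in Ly6c2 and Cx3cr1. The 3′ UTRs of Cd68, Ctss, Lyz2 and Fcgr1 do not hold either string in the annotated form. A match of letters is a description of the sequence and not a site of binding.

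The start sites are shown because genes of the myeloid lineage commonly depend on the transcription factor PU.1, which recognizes the PU box GAGGAA. RefSeq (GRCm38.p6) promoter windows of 300 bases, from 250 before to 50 after the start, matched 8 of the 9 members in 10 windows, and 7 of these windows, in 5 members, hold GAGGAA on either strand, as do 28.3% of all 32851 windows. The 2 windows of Ly6c2 do not add separate sites to each other. Ly6c2, Cd68 and Ctss hold 2 sites each, F13a1 3 and Fcgr1 1, and only 1 per member is shown. Capitals mark the box, which reads TTCCTC where it lies on the opposite strand, and each line gives 30 bases in the direction of the gene.
Ly6c2, chr15:75112062-75112091, minus strand: catgttggccctGAGGAAgtaagaaccaaa
Fcgr1, chr3:96294007-96294036, minus strand: atggcaacttccTTCCTCttttctaatctt
Cd68, chr11:69666124-69666153, minus strand: gaggcttttcatTTCCTCttccaagagaag
Ctss, chr3:95526774-95526803, plus strand: atgaaagttcacTTCCTCattgtggatgct
F13a1, chr13:37050293-37050322, minus strand: ttgaagctacagGAGGAAgagaggataaga
The windows of Ccr2, Cx3cr1 and Lyz2 do not contain these letters.

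Libraries held from 24261371 to 39934554 counts in all. Levels are CPM, that is counts scaled to a common library size, after TMM scaling over all 24 libraries. The word called is used for genes that passed the limits of the study, which are an adjusted p under 0.05 (edgeR's quasi-likelihood F test, Benjamini-Hochberg over all genes tested), a change of more than 1.2-fold and a mean logCPM above 1.5, and adjusted p below is from this test unless DESeq2 or the likelihood ratio test is named. Zfp36, the gene that carries the deletion, was higher in every TTPΔARE library than in every WT library of its set. Its means were 95.5 against 48.8 CPM in Y-HSCs, 101.3 against 52.6 CPM in M-HSCs and 98.1 against 28.6 CPM in MPP3. Its test passed in M-HSCs (adjusted p = 0.0020) and MPP3 (adjusted p = 0.000646) but not in Y-HSCs (adjusted p = 0.238). In Y-HSCs the likelihood ratio test (adjusted p = 0.0130) and DESeq2 (adjusted p = 0.000740) called it. The study reports Zfp36 as significantly raised at both ages in HSCs, so the main test used here missed the targeted gene in Y-HSCs. Markers of the sorted cells followed the labels: Slamf1 (CD150) had a mean of 59.1 CPM in Y-WT HSCs and 2.22 CPM in Y-WT MPP3, and Cd48 a mean of 9.77 against 162.8 CPM. The titles number M-HSC, Y-HSC and MPP3 libraries as 3 separate sets, so that age and cell type cannot be told apart from the set.

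Levels differed widely between the members. Per kilobase of exon, Lyz2 was the highest member in each of the 6 groups, with means from 300.5 to 439.5 CPM per kb. Ctss came second in each group (15.8 to 150.6 CPM per kb), and Cd68 and Ly6c2 held the next ranks, with Cd68 above Ly6c2 in 5 groups and below it in Y-WT MPP3. In that group the means of Ly6c2 and Cd68 were 55.1 ± 45.9 and 22.9 ± 2.40 CPM per kb (SD, n = 4), and they do not differ beyond that spread. Ccr2, Adgre1, Fcgr1, F13a1 and Cx3cr1 were the 5 lowest in Y-WT HSCs, all under 1 CPM per kb on average, and the order among the last 3 (0.271 ± 0.127, 0.181 ± 0.141 and 0.146 ± 0.0826 CPM per kb) is within their spread. Thus the HSC libraries held much mRNA of Lyz2, the gene of the bactericidal enzyme lysozyme, and very little of the receptors that define monocytes.

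**Figure D1:**
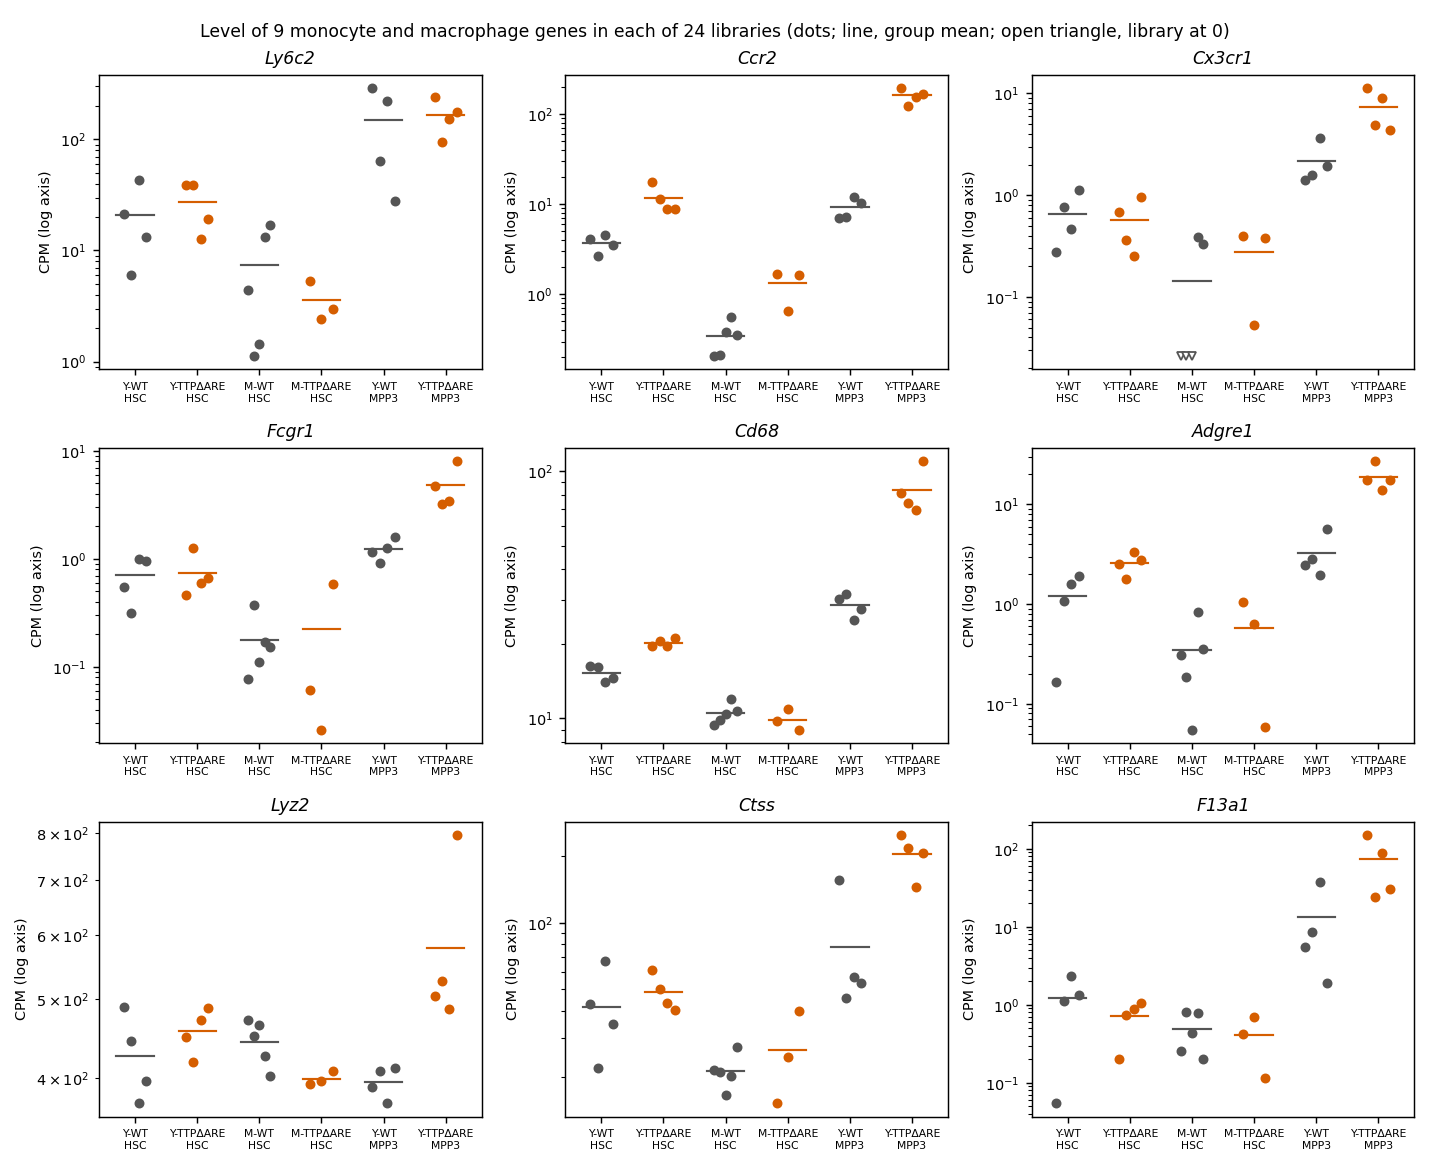
Level (CPM, log axis) of the 9 members in the 24 libraries, by group on the horizontal axis. Dots are libraries, lines are group means, gray is WT, orange is TTPΔARE and open triangles mark libraries with 0 counts. In Ccr2 the Y-TTPΔARE MPP3 libraries lie between 123.8 and 194.2 CPM, above all the others, whose highest value is 17.8 CPM.

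The main difference between genotypes was seen in MPP3. Ccr2 mRNA was raised 17.8-fold in Y-TTPΔARE MPP3, and Cd68, Adgre1 and Fcgr1 rose with it, by 2.98-fold, 6.04-fold and 4.02-fold. Thus 4 of the 9 members were called higher in Y-TTPΔARE MPP3, against 1.58% of all genes tested, and 0 were called lower. The members were chosen with earlier results of these data known, so these counts are not an independent test. All 9 fold changes were above 1, with a median log2 fold change of 1.81 (0.04 over all genes tested). An unadjusted p under 0.05 was found for 8 of the 9, the exception being Ly6c2. Here and below, the share of all genes at such a p was not counted. For 6 of the 9 every Y-TTPΔARE library lay above every Y-WT library, against 4.29% of genes over the logCPM limit. DESeq2 called 7 of the 9 higher (3.28% of genes). In bulk RNA, more cells of a type and more RNA per cell cannot be told apart.

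**Figure D2:**
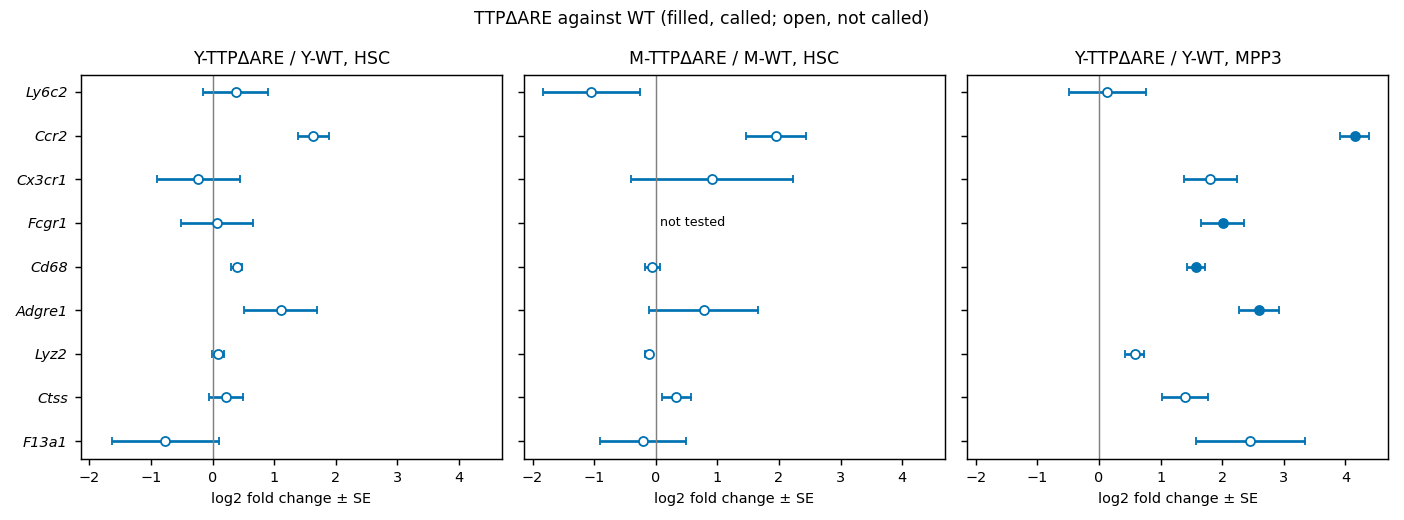
Log2 fold change of each member in TTPΔARE against WT, with SE bars, in Y-HSCs, in M-HSCs and in MPP3. Filled points are called genes and open points are not called. The filled points are Ccr2, Fcgr1, Cd68 and Adgre1 in MPP3, and Fcgr1 was not tested in M-HSCs.

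Of the receptors, Ccr2 encodes the receptor for the chemokine CCL2 (ENSMUSG00000049103, chr9:124101950-124113557, plus strand; no annotated gene overlaps it). In Y-WT MPP3 it was counted at 7.06, 7.24, 12.1 and 10.4 CPM and in Y-TTPΔARE MPP3 at 194.2, 123.8, 155.7 and 167.7 CPM. The groups are far apart, with a log2 fold change of 4.15 ± 0.24 (SE, adjusted p = 7.16e-05). Ccr2 was called in each of the 8 fits that left out a library, with log2 fold changes from 4.03 to 4.34.

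In HSCs the same receptor was counted less. Y-WT HSCs had 4.07, 2.64, 4.60 and 3.55 CPM and Y-TTPΔARE HSCs 17.8, 11.3, 8.80 and 8.90 CPM. The groups do not overlap, and the log2 fold change was 1.64 ± 0.25, which did not pass the adjustment over all genes (adjusted p = 0.113) although the likelihood ratio test (adjusted p = 2.84e-05) and DESeq2 (adjusted p = 4.40e-06) called it. M-WT HSCs had 0.207, 0.213, 0.386, 0.560 and 0.355 CPM and M-TTPΔARE HSCs 1.70, 0.655 and 1.62 CPM. Here too all TTPΔARE libraries were the higher ones, with a log2 fold change of 1.96 ± 0.49 (adjusted p = 0.0770). The likelihood ratio test (adjusted p = 0.0130) and DESeq2 (adjusted p = 0.00767) gave lower values, but the gene lay under the logCPM limit.

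Thus Ccr2 was higher in the TTPΔARE libraries of all 3 sets. The difference was larger in MPP3 than in young HSCs by 2.42 ± 0.35 on the log2 scale, and this interaction was called (adjusted p = 0.00312). Between the ages the log2 fold changes differed by 0.28 ± 0.46 (adjusted p = 0.750). Of the ligands of CCR2, Ccl2 had means between 0.165 and 0.599 CPM over the 6 groups, and Ccl7 and Ccl12 stayed at means of at most 0.198 CPM.

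Cx3cr1 encodes the receptor for fractalkine (ENSMUSG00000052336, chr9:119901616-120069879, minus strand). A long annotated transcript of it spans 9 other genes, among them Wdr48 and Ttc21a, so that reads could have been shared. Y-WT MPP3 had 1.40, 1.58, 3.69 and 1.92 CPM and Y-TTPΔARE MPP3 11.3, 4.85, 9.04 and 4.33 CPM. The groups do not overlap, yet the log2 fold change of 1.81 ± 0.43 missed the threshold (adjusted p = 0.0744). It passed without Y-WT MPP3 replicate 3 (2.24 ± 0.40, adjusted p = 0.0320) and with DESeq2 (adjusted p = 0.00257). In HSCs Cx3cr1 was near the limit of detection, with means from 0.144 to 0.656 CPM, 0 counts in 3 of the 5 M-WT libraries, and overlapping genotypes at both ages (adjusted p = 0.902 in Y-HSCs and 0.769 in M-HSCs).

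Its ligand gene, Cx3cl1, was abundant in HSCs by comparison. M-WT HSCs had 21.0, 26.3, 15.5, 16.9 and 21.4 CPM and M-TTPΔARE HSCs 37.4, 33.1 and 41.2 CPM, without overlap (log2 fold change 0.91 ± 0.14, adjusted p = 0.0111). In Y-HSCs the means were 23.4 and 27.6 CPM (adjusted p = 0.722) and in MPP3 6.56 and 5.92 CPM (adjusted p = 0.923). Thus the ligand rose with TTPΔARE in middle-aged HSCs, where its receptor was hardly counted. Between the ages its log2 fold changes differed by 0.64 ± 0.25, and this interaction was not called (adjusted p = 0.293).

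Fcgr1 encodes the high-affinity IgG receptor CD64 (ENSMUSG00000015947, chr3:96282909-96293969, minus strand; no annotated gene overlaps it). Fcgr1 stood at 1.14, 0.913, 1.25 and 1.58 CPM in Y-WT MPP3 and at 4.72, 3.25, 3.44 and 7.97 CPM in Y-TTPΔARE MPP3, without overlap (log2 fold change 2.01 ± 0.35, adjusted p = 0.0155). This call was the least stable of the 4, being kept in 3 of the 8 fits with a library left out. It was lost without Y-WT replicate 1, Y-WT replicate 2 or Y-TTPΔARE replicate 1 (adjusted p = 0.0600, 0.0606 and 0.0553), and without Y-TTPΔARE replicate 3 or 4 the gene fell under the logCPM limit (adjusted p = 0.0250 and 0.0287). In HSCs its means were between 0.176 and 0.742 CPM, with overlapping genotypes (adjusted p = 0.969 in Y-HSCs, not tested in M-HSCs).

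A partner gene of Fcgr1 and the genes of other IgG receptors moved in the same comparison. Fcer1g, the signaling chain that the receptor needs, had means of 41.7 and 101.0 CPM in Y-WT and Y-TTPΔARE MPP3 (adjusted p = 0.00910). The other IgG receptors Fcgr3 (5.94 and 23.1 CPM, adjusted p = 0.00187), Fcgr2b (18.6 and 69.0 CPM, adjusted p = 0.000497) and Fcgr4 (0.713 and 5.35 CPM, adjusted p = 0.00119) were also called higher. Fcgr2b, the inhibitory member, differed in direction between the cell types. In Y-HSCs its Y-TTPΔARE libraries (13.3, 18.6, 15.6 and 18.0 CPM) were below all Y-WT libraries (57.3, 21.1, 26.3 and 63.9 CPM; adjusted p = 0.255). The interaction was called (3.22 ± 0.45 on the log2 scale, adjusted p = 0.00235). Y-WT HSC replicates 1 and 4, highest in Fcgr2b, were also highest in the summed level of 5 endothelial genes (668.9 and 640.0 CPM). That sum was 344.5 and 307.3 CPM in Y-WT HSC replicates 2 and 3. The part of endothelial cells in the Fcgr2b values was not tested.

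Of the surface antigens, Adgre1 encodes F4/80, an adhesion receptor of mouse macrophages (ENSMUSG00000004730, chr17:57358691-57483527, plus strand; no annotated gene overlaps it). It was counted at 2.48, 2.86, 1.96 and 5.64 CPM in Y-WT MPP3 and at 17.5, 27.0, 14.1 and 17.7 CPM in Y-TTPΔARE MPP3. The groups are well apart, with a log2 fold change of 2.59 ± 0.32 (adjusted p = 0.00222), and the call held in all 8 fits with a library left out. In Y-HSCs it was counted at 0.165, 1.08, 1.61 and 1.92 CPM in WT and 2.52, 1.80, 3.30 and 2.77 CPM in TTPΔARE, groups that overlap through 1 library each (log2 fold change 1.10 ± 0.59, adjusted p = 0.712). In M-HSCs the means were 0.350 and 0.582 CPM (adjusted p = 0.706).

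Ly6c2, the gene of the Ly6C antigen of classical monocytes (ENSMUSG00000022584, chr15:75108158-75111970, minus strand), did not follow Ccr2. It was counted at 291.0, 63.3, 221.8 and 28.1 CPM in Y-WT MPP3 and at 241.3, 95.2, 152.6 and 177.4 CPM in Y-TTPΔARE MPP3. The Y-WT libraries alone span more than 10-fold and enclose the Y-TTPΔARE libraries (log2 fold change 0.13 ± 0.63, adjusted p = 0.954). In Y-HSCs it was counted at 21.5, 6.04, 42.7 and 13.2 CPM in WT and at 38.9, 38.7, 12.6 and 19.2 CPM in TTPΔARE (adjusted p = 0.803). In M-HSCs the WT libraries spanned 1.12 to 17.1 CPM and the TTPΔARE libraries 2.41 to 5.27 CPM (adjusted p = 0.544). The genotypes thus overlapped in all 3 sets. Its near-identical neighbour Ly6c1 was counted at group means of 0.675 to 2.89 CPM, and reads that fit both genes could have been split or dropped, since the setting for multimapping reads is not given in the sources used here.

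Of the lysosomal genes, Cd68 encodes the membrane glycoprotein macrosialin (ENSMUSG00000018774, chr11:69664213-69666153, minus strand; no annotated gene overlaps it). It was counted at 30.4, 31.9, 25.0 and 27.7 CPM in Y-WT MPP3 and at 81.8, 74.3, 69.8 and 109.4 CPM in Y-TTPΔARE MPP3, with a log2 fold change of 1.57 ± 0.15 (adjusted p = 0.000471) and a call in all 8 fits with a library left out. In Y-HSCs it was counted at 16.3, 16.1, 14.1 and 14.5 CPM in WT and at 19.6, 20.6, 19.6 and 21.1 CPM in TTPΔARE. These groups are also apart, by 1.31-fold (log2 fold change 0.39 ± 0.09), but the test did not pass the adjustment (adjusted p = 0.260, and 0.0160 with DESeq2). In M-HSCs the WT libraries (9.39, 9.84, 10.4, 12.0 and 10.7 CPM) enclosed 2 of the 3 TTPΔARE libraries (9.72, 10.9 and 9.0 CPM; adjusted p = 0.868). The difference between genotypes was larger in MPP3 than in Y-HSCs by 1.11 ± 0.22 on the log2 scale (adjusted p = 0.0335). This interaction was kept in 12 of 16 fits with a library left out and lost without HSC replicate 2 or 4 of Y-WT, HSC replicate 4 of Y-TTPΔARE or MPP3 replicate 4 of Y-WT (adjusted p = 0.0717, 0.0748, 0.0512 and 0.0659).

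Ctss encodes cathepsin S, a protease that trims the invariant chain for antigen presentation (ENSMUSG00000038642, chr3:95526786-95556403, plus strand; the pseudogene Hmgb1-ps5 lies within it). Ctss stood at 155.9, 45.6, 56.6 and 53.5 CPM in Y-WT MPP3 and at 249.1, 216.7, 145.7 and 206.4 CPM in Y-TTPΔARE MPP3. Only Y-WT replicate 1 reached the range of the Y-TTPΔARE libraries. Over all 8 libraries the log2 fold change was 1.40 ± 0.38 (adjusted p = 0.130), and without that replicate it was 1.99 ± 0.18 (adjusted p = 0.00130). With all 8, the likelihood ratio test (adjusted p = 0.0154) and DESeq2 (adjusted p = 0.00378) called Ctss. In HSCs the genotypes overlapped, with means of 41.7 and 48.8 CPM in Y-WT and Y-TTPΔARE (adjusted p = 0.788) and of 21.4 and 26.6 CPM in M-WT and M-TTPΔARE (adjusted p = 0.518).

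Lyz2 (ENSMUSG00000069516, chr10:117277331-117282321, minus strand; no annotated gene overlaps it) was close to even over the 20 libraries other than Y-TTPΔARE MPP3. It was counted at 389.6, 408.4, 372.6 and 411.1 CPM in Y-WT MPP3 and at 504.7, 526.2, 486.5 and 795.9 CPM in Y-TTPΔARE MPP3. The groups do not overlap, and Y-TTPΔARE replicate 4 stood above the rest. The log2 fold change over all libraries was 0.58 ± 0.15 (adjusted p = 0.117), whereas without replicate 4 it was smaller and passed, at 0.38 ± 0.06 (adjusted p = 0.0229). Over all libraries DESeq2 called Lyz2 (adjusted p = 0.0114) and the likelihood ratio test did not (adjusted p = 0.102). In HSCs the group means lay between 399.4 and 456.7 CPM, and the genotypes overlapped at both ages (adjusted p = 0.753 in Y-HSCs and 0.318 in M-HSCs). The paralog Lyz1, which is close in sequence, had means of 0.231 CPM in Y-WT and 3.71 CPM in Y-TTPΔARE MPP3 (adjusted p = 0.00941), under the logCPM limit, and the reads of the paralogs may not be fully separated.

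F13a1 encodes the A chain of coagulation factor XIII, which monocytes make (ENSMUSG00000039109, chr13:36867178-37050244, minus strand; Gm30489 and Gm49144 overlap it). Its levels differed widely between libraries of the same group in MPP3. It was counted at 5.53, 8.71, 37.2 and 1.92 CPM in Y-WT MPP3 and at 150.6, 24.0, 88.9 and 30.4 CPM in Y-TTPΔARE MPP3. The groups overlap through Y-WT replicate 3, and the log2 fold change of 2.46 ± 0.89 missed the threshold (adjusted p = 0.290). In HSCs its group means lay between 0.416 and 1.22 CPM, and the genotypes overlapped (adjusted p = 0.765 in Y-HSCs and 0.911 in M-HSCs).

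In young HSCs, then, 0 of the 9 members were called, against 0.0246% of all genes tested. Zfp36 itself was not called there by this test either. Of the members, 2 had an unadjusted p under 0.05, Ccr2 and Cd68. The likelihood ratio test called 1 of them (146 of all genes), and DESeq2 called both (0.883% of genes called higher). The same 2 genes were those whose groups did not overlap, against 2.89% of genes over the logCPM limit. The members' median log2 fold change was 0.21, against -0.07 over all genes tested. In middle-aged HSCs 8 members were tested and 0 were called (1.41% of genes), 1 had an unadjusted p under 0.05, Ccr2, and neither the likelihood ratio test nor DESeq2 called any within the limits. Ccr2 was also the only member whose middle-aged groups did not overlap (3.44% of genes over the logCPM limit, which Ccr2 did not reach). The median log2 fold change was 0.14, against 0.01 over all genes tested, with 4 members above and 4 below 0.

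Whether the effect of TTPΔARE differed between contexts was tested as an interaction. Between young HSCs and MPP3 the test called 2 of the 9 members, Ccr2 and Cd68, against 0.429% of genes, and 8 of the 9 differences were towards MPP3 (median 1.38 on the log2 scale, 0.11 over all genes tested). Between the ages it called 0 of the 9 (0.0213% of genes). There 2 members, Cd68 and Lyz2, had an unadjusted p under 0.05, and neither DESeq2 nor the likelihood ratio test called any. For Cd68 the log2 fold change was lower in middle-aged than in young HSCs by 0.50 ± 0.14 (adjusted p = 0.238). The interaction and the comparisons within sets share libraries.

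The 9 genes are a small sample of this lineage, so 5 further lists were read beside them in Y-TTPΔARE against Y-WT MPP3. These lists were also chosen with earlier results of these data known, so their counts are descriptions. Of 22 genes shared by mononuclear phagocytes, 13 were called higher (median log2 fold change 1.87). They include Irf8, a transcription factor of monocyte and dendritic cell fate (mean 36.6 to 343.0 CPM), Ly86, which encodes the MD-1 partner of the receptor RP105 (4.39 to 52.7 CPM), and the Fc receptors Fcgr2b and Fcgr4 named above. Of 10 genes of non-classical monocytes, 3 were called higher, Treml4, the scavenger receptor gene Cd36 and the ribonuclease gene Ear2, by 8.88-fold, 10.9-fold and 16.5-fold. Of 12 tested genes of classical monocytes, 1 was called higher, Ms4a6c (30.5 to 69.9 CPM, adjusted p = 0.0334). Of 16 tested genes of tissue macrophages, 1 was called higher, the transcription factor gene Maf (6.77 to 15.5 CPM, adjusted p = 0.0446), although 11 had an unadjusted p under 0.05 in that direction. Of 12 tested genes of lysosomal proteases and their partners, 5 were called higher, among them the cathepsin genes Ctsh (20.2 to 87.6 CPM) and Ctsz (111.1 to 198.3 CPM), the saposin gene Psap (512 to 1176 CPM) and Cst3 (257.2 to 1595 CPM), the gene of the cathepsin inhibitor cystatin C. The 5 lists had 0 genes called lower by edgeR and 0 with an unadjusted p under 0.05 in that direction. In Y-HSCs edgeR called 0 genes of the 5 lists, although 9 had an unadjusted p under 0.05 in the higher and 8 in the lower direction, and DESeq2 called 6 in all and the likelihood ratio test 5. In M-HSCs 2 of 16 tested macrophage genes, Mrc1 (the mannose receptor) and Vcam1 (an adhesion molecule), and 2 of 12 lysosomal genes, Lgmn and Lamp2, were called lower, as were 150 of all 21136 genes tested.

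Markers of other cell types moved in the same MPP3 libraries. The summed level of 6 dendritic cell genes was 15.8, 7.43, 11.7 and 14.7 CPM in Y-WT and 195.5, 129.9, 156.8 and 167.8 CPM in Y-TTPΔARE MPP3. Of the 6, 4 were called higher, Zbtb46 (mean 3.32 to 28.8 CPM), Clec9a (1.11 to 29.1 CPM), Itgax (2.20 to 22.5 CPM) and Xcr1 (1.43 to 64.9 CPM). These mark conventional dendritic cells. Siglech of plasmacytoid cells was too low to be called (means of 0.664 and 1.19 CPM). The remaining gene, Ccr9, was not called by the main test. However, 5 of the 6 were higher at an unadjusted p under 0.05, and DESeq2 and the likelihood ratio test each called 5, Ccr9 among them. Whether the rise was confined to genes of conventional dendritic cells was not tested. Over 12 neutrophil genes the sum was 362.6 to 1296 CPM in Y-WT and 1043 to 2290 CPM in Y-TTPΔARE, with 1 called, Elane (21.6 to 123.8 CPM), and the defining surface marker Ly6g at means of 0.151 and 0.139 CPM. Most of this sum was Mpo (means of 638.1 and 1312 CPM), which was also listed as a marker of the sorted MPP3. The summed erythroid list was 12.1 to 27.1 CPM in Y-WT and 45.2 to 87.5 CPM in Y-TTPΔARE (1 of 5 called, Hbb-bt), and the B cell list 47.2 to 107.1 and 51.9 to 151.8 CPM. The T and NK cell list was 179 to 333 and 211.5 to 470.9 CPM, with 0 genes called. Most of it was Nkg7 (means of 235.6 and 285.0 CPM), whereas Cd3e had means of 0.173 and 1.00 CPM. The endothelial list was 90.6 to 108.2 and 63.0 to 90.9 CPM. Of its 4 tested genes 0 were called, and 2 were higher and 1 lower at an unadjusted p under 0.05. The megakaryocyte list was 142.1 to 170.7 and 81.0 to 103.0 CPM (1 of 5 tested called lower, Itga2b). The part of these cell types in the values of the 9 members was not tested. Within Y-HSCs, where Ccr2 and Cd68 stood apart, the dendritic cell list did not (21.9 to 34.8 CPM in WT and 18.3 to 27.8 CPM in TTPΔARE), whereas the T and NK cell list (62.3 to 75.8 and 92.7 to 181.7 CPM) and the erythroid list (26.7 to 40.0 and 51.6 to 91.4 CPM) did. The endothelial list was lower in the Y-TTPΔARE HSCs without overlap (307.3 to 668.9 CPM in WT and 290.0 to 301.2 CPM in TTPΔARE), with 4 of its 5 genes at an unadjusted p under 0.05 and 0 called. In M-HSCs, where Ccr2 stood apart as well, the dendritic cell list was 17.8 to 20.9 CPM in WT and 25.0 to 28.0 CPM in TTPΔARE, with Zbtb46 called higher (mean 9.77 to 13.4 CPM). There the neutrophil list (201.7 to 272.5 and 171.6 to 176.7 CPM), the megakaryocyte list (566.3 to 687.3 and 404.7 to 486.5 CPM) and the endothelial list (309.8 to 353.2 and 277.7 to 294.8 CPM) were lower in TTPΔARE without overlap. Most of that neutrophil sum was Prtn3 (means of 224.4 and 168.7 CPM). At an unadjusted p under 0.05, 6 of 8 tested neutrophil genes were lower and 0 higher. The megakaryocyte and endothelial lists had 2 and 3 genes lower at such a p, and 1 higher in each. The part of these cell types in the values of the members in HSCs was not tested either.

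**Figure D3:**
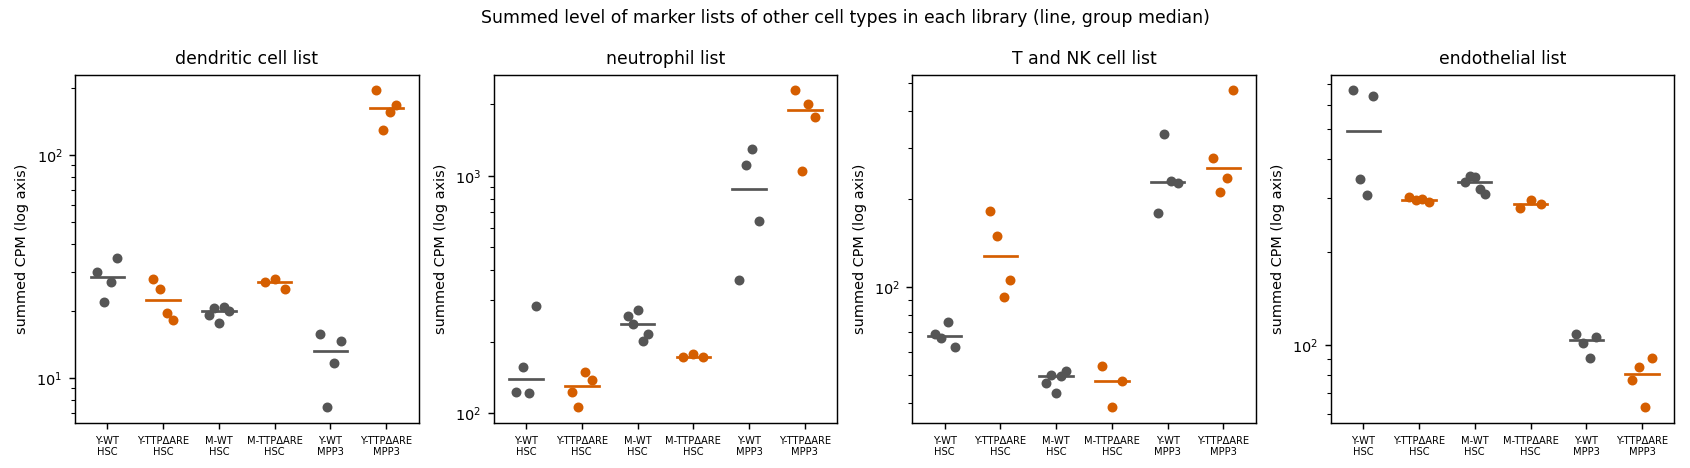
Summed CPM (log axis) of 4 marker lists of other cell types in each library, by group. Dots are libraries, lines are group medians, gray is WT and orange is TTPΔARE. The dendritic cell list lies between 129.9 and 195.5 CPM in Y-TTPΔARE MPP3 and at most at 34.8 CPM in the other groups.

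The study used 3 of the Y-TTPΔARE MPP3 libraries without naming them in its text. Without Y-TTPΔARE MPP3 replicate 4, 4 members were called higher (1.49% of genes), namely Ccr2, Cd68, Adgre1 and Lyz2, so that Lyz2 took the place of Fcgr1.

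The comparison of WT cell types gives the background against which these changes stand. From Y-WT HSCs to Y-WT MPP3, 4 of the 9 members rose, Ly6c2, Ccr2, Cd68 and F13a1, while 14.5% of all genes tested were called higher and 7.69% lower. Ly6c2 went from a mean of 20.9 ± 15.9 to 151.1 ± 125.7 CPM (SD, n = 4; log2 fold change 2.93 ± 0.81, adjusted p = 0.0264) and F13a1 from 1.22 ± 0.95 to 13.3 ± 16.1 CPM (3.56 ± 1.04, adjusted p = 0.0324), both with groups that overlap. Ccr2 rose by 2.53-fold (adjusted p = 0.00409) and Cd68 by 1.92-fold (adjusted p = 0.000316), without overlap. The calls of Ccr2 and Cd68 held in all 8 fits with a library left out, whereas Ly6c2 and F13a1 were both lost without Y-WT HSC replicate 2, Y-WT HSC replicate 4 or Y-WT MPP3 replicate 3, and Ly6c2 also without Y-WT MPP3 replicate 1. Lyz2 had nearly equal means, 426.1 and 395.5 CPM (log2 fold change -0.08 ± 0.11, adjusted p = 0.572). The other 4 were Cx3cr1 (adjusted p = 0.0461), under the logCPM limit, and Adgre1, Ctss and Fcgr1 (adjusted p = 0.128, 0.168 and 0.287).

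Of the further lists, that of classical monocytes had 3 of 11 tested genes called higher in Y-WT MPP3, among them Plac8 (8.52-fold) and Ms4a6c (1.44-fold), and 0 called lower. Its median log2 fold change was nevertheless -0.44 (-0.16 over all genes tested), and 4 of its genes had an unadjusted p under 0.05 in the lower direction against 3 in the higher. Of the genes shared by mononuclear phagocytes 8 were called higher, among them the signaling adaptor Tyrobp (7.73-fold) and the receptor gene Csf1r (2.25-fold), and 1 lower. Of the tissue macrophage list 4 were called higher and 4 lower, among them Cd163 and C1qb (higher) and Apoe (lower). Of the non-classical list 1 was called higher (Itgal) and 1 lower (Cd36), and of the protease list 3 were called lower (Ctsl, Lgmn and Ctsh). This comparison shares its Y-WT MPP3 libraries with the comparison of genotypes in MPP3, and its Y-WT HSC libraries with those of genotype and age in HSCs.

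Between the ages, 2 of the 9 members fell in M-WT against Y-WT HSCs, Cd68 and Ctss, against 3.69% of genes called lower and 8.38% called higher. Of the 9 log2 fold changes 8 were negative, with a median of -1.53 (-0.04 over all genes tested). Cd68 fell from 16.3, 16.1, 14.1 and 14.5 CPM to between 9.39 and 12.0 CPM, without overlap (log2 fold change -0.58 ± 0.09, adjusted p = 0.00243). Ctss fell from 42.7, 22.0, 67.0 and 34.8 CPM to 21.5, 21.2, 16.7, 20.4 and 27.4 CPM, groups that overlap through Y-WT replicate 2 (log2 fold change -1.0 ± 0.27, adjusted p = 0.0249). The call of Ctss was lost without M-WT replicate 1, 2 or 3 or Y-WT replicate 3 (adjusted p = 0.0521, 0.0561, 0.0572 and 0.0548).

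Ccr2 had a lower log2 fold change between ages than the other 8 members in the main test, although with a replicate block that of Cx3cr1 was lower. It went from a mean of 3.72 ± 0.84 CPM (SD, n = 4) in Y-WT to 0.344 ± 0.145 CPM (SD, n = 5) in M-WT HSCs, a log2 fold change of -3.46 ± 0.35 (adjusted p = 0.000239). All M-WT libraries were below all Y-WT libraries, but its average level was under the logCPM limit, so that it was not called. Fcgr1, with a mean of 0.702 CPM in Y-WT and 0.176 CPM in M-WT HSCs, was also under the limit, and its groups overlap (log2 fold change -2.02 ± 0.62, adjusted p = 0.0423). Lyz2 had means of 426.1 and 442.9 CPM and the only positive log2 fold change, 0.02 ± 0.07, which turned negative with DESeq2 or other scaling factors (adjusted p = 0.882). Of the further lists, genes called lower with age were 4 classical monocyte genes, among them Plac8 (0.225 of the young level), 5 genes shared by mononuclear phagocytes, among them Fcgr2b (0.152 of the young level) and Irf8 (0.530), and 5 tissue macrophage genes, among them Mrc1 (0.121) and Vcam1 (0.119). Cd36 of the non-classical list and the protease genes Lgmn and Ctsl were also called lower, whereas Spn, 2 tissue macrophage genes, Lamp2 and Ctsc were called higher. In the same libraries the endothelial list was 307.3 to 668.9 CPM in Y-WT and 309.8 to 353.2 CPM in M-WT, with 3 of 5 called lower. The T and NK cell list was 62.3 to 75.8 and 43.5 to 51.6 CPM. Of its 7 genes 4 were called lower and 1 higher, Klrb1c (mean 31.4 CPM in M-WT). Among those called lower, Cd3e went from a mean of 5.51 to 0.567 CPM and Nkg7 from 38.3 to 13.0 CPM. The megakaryocyte sum was higher in M-WT without overlap (287.9 to 300.7 and 566.3 to 687.3 CPM). Of its 5 tested genes only Vwf was called higher (means of 102.8 and 404.9 CPM), whereas 2, Pf4 and Ppbp, were called lower. Of the sorted HSC list, 6 of 8 genes were called higher. The part of these cell types in the age differences was not tested.

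**Figure D4:**
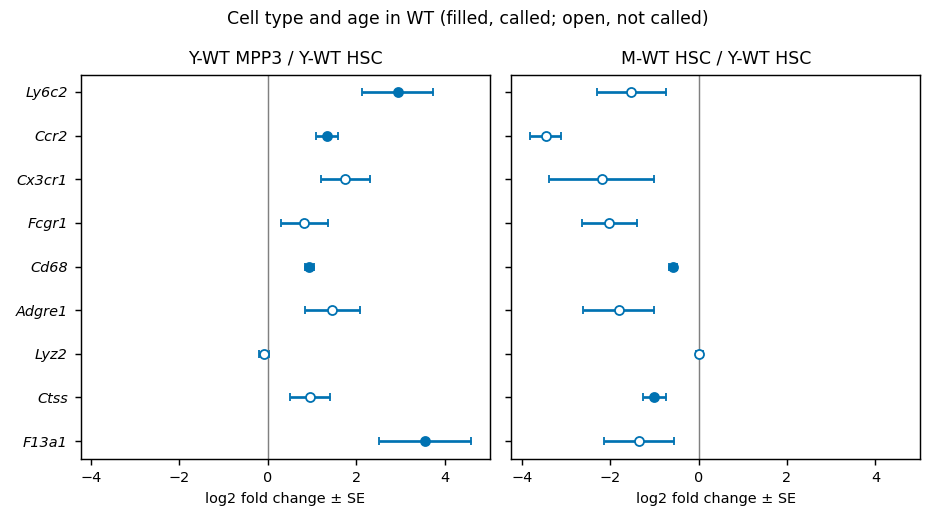
Log2 fold change of each member with SE bars between WT groups, MPP3 against HSCs on the left and middle-aged against young HSCs on the right. Filled points are called genes. Filled points on the left are Ly6c2, Ccr2, Cd68 and F13a1, all above 0, and on the right Cd68 and Ctss, both below 0.

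The members were also compared within groups, as deviations of log2 CPM from each group's mean over 24 libraries. Pearson's r over the 36 pairs of members had a median of 0.01 and ran from -0.45 (Lyz2 and F13a1) to 0.63 (Cd68 and Lyz2), with 18 pairs positive. The other pairs over 0.5 were Ccr2 with Cx3cr1 (0.57) and Ly6c2 with Ctss (0.52). Libraries that were high in one member were therefore not in general high in the others. These r are descriptions, and the points share libraries and their scaling.

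**Figure D5:**
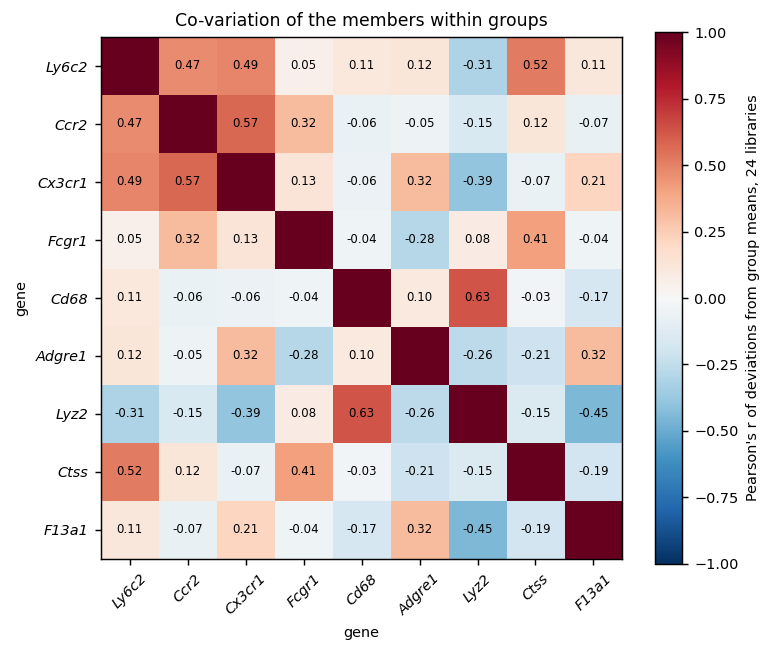
Pearson's r between members, computed over 24 libraries on deviations of log2 CPM from the group means. Red is positive, blue negative, and the highest value off the diagonal is 0.63 for Cd68 with Lyz2.

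Among 13598 other genes over the logCPM limit, the closest to Ctss in this measure were Slamf7 (r = 0.90), Ifi211 (0.89) and Prg2 (0.89). Ly6c2 was closest to Cd52 (0.89), Adam8 (0.72) and the T cell gene Cd3g (0.71), and Ccr2 to the chemokine receptor gene Cxcr3 (0.73), Apex2 (0.72) and Ccdc102a (0.71). For Adgre1 they were Pirb (0.77), Sema3d (0.75) and Hlx (0.74), for Cd68 Pip4k2b (0.86), Apoo (0.83) and Grhpr (0.82), and those of F13a1 included Kalrn (0.78) and Gm42798 (0.76). Lyz2 had Hsbp1 (0.96), Fundc2 (0.96) and Pigp (0.95). Cx3cr1 and Fcgr1 lay under the limit over all libraries and were not compared.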

How the data were processed

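Bulk mRNA-seq of 24 sorted-cell libraries was analysed. The deposited values are raw read counts per gene symbol, not normalized. Per the labels and the methods of the study, the authors used Trim Galore! (Cutadapt) for trimming, STAR for alignment to mm10 on a GENCODE M22 index and featureCounts for counting. The sources used here do not give the strand or multimapping settings. The study names a SMART-seq v4 kit and the labels another SMARTer kit. Groups were taken from the sample titles.

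The main tool was edgeR 4.0.16, run in R 4.3.3 beside DESeq2 1.42.0 and limma 3.58.1. The filter was filterByExpr (minimum count 10, minimum total 15). Genes were then scaled by TMM within each comparison and tested by the quasi-likelihood F test with Benjamini-Hochberg adjustment, over the libraries compared. An interaction needed no minimum fold change. The SE is the log2 fold change divided by the root of F. Log2 CPM used a prior count of 2. Exon lengths and 3′ UTRs are those of GENCODE M21, another release than the one counted.

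The members and the gene lists were chosen with earlier results of these data known. Named genes are the members, Zfp36, paralogs, ligands and partners of the receptors, and from each list at most the 4 called genes with the smallest adjusted p. A few genes that this rule or the measure of likeness would name are not reported here. No 2 libraries of a group agreed within sampling noise (lowest chi-square per degree of freedom 22.5). Alternatives were DESeq2, the likelihood ratio test, RLE and upper-quartile factors, no filter, adjusted p only, all 24 libraries in 1 fit, a replicate block and each library left out.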

Additional observations from a re-analysis of the deposited data

Results flagged for a closer look

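Of 45 sets of 4 or 5 libraries (9 members in 5 groups), 2 held a library far from the others, and chance alone gives such a gap in about 1 of 20 sets. Lyz2 was at 795.9 CPM in Y-TTPΔARE MPP3 replicate 4, where the next library had 526.2 CPM. Ctss was at 155.9 CPM in Y-WT MPP3 replicate 1, where the next had 56.6 CPM. The 9 sets of M-TTPΔARE HSCs hold 3 libraries each and were not examined in this way.

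The effect of TTPΔARE differed between young HSCs and MPP3 for Ccr2, by 2.42 on the log2 scale (adjusted p = 0.00312), and for Cd68, by 1.11 (adjusted p = 0.0335), both by edgeR's interaction test and both larger in MPP3.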

How the results depend on the processing

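The depth limits the low members most: Cx3cr1, Fcgr1, Adgre1 and F13a1 lay under the logCPM limit in HSCs (Fcgr1 was not tested in M-HSCs), and Ccr2 in M-HSCs, so that differences there may not be detectable at this depth. In Y-HSCs, where edgeR's main test called 0 members, DESeq2 called 2 (304 of all genes), the likelihood ratio test 1 (146), the fit without a filter 1 (73) and the fit of all 24 libraries 1 (18). In M-HSCs (0) the fit of all 24 libraries called 1 (53 of all genes). In MPP3 (4) DESeq2 and the fit without a filter each called 7 (766 and 470 of all genes), and leaving out a library gave 3 to 5. Between WT cell types (4) leaving out a library gave 2 to 4. Between ages (2) adjusted p alone gave 4 (4453 of all genes), leaving out a library 1 to 2, and between cell types the interaction (2) gave 1 to 2. The fit of all 24 libraries lost Fcgr1 in MPP3 (adjusted p = 0.0539) and Ctss between ages (adjusted p = 0.0621, edgeR). With the longest transcript in place of all exons, the order of levels was the same in both MPP3 groups and 2 of the 9 members swapped ranks in each HSC group. The cause of these differences was not tested.

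The labels do not say whether replicate numbers pair the samples, and the main fits used no pairing. In none of the 5 comparisons did every same-numbered pair correlate at over 0.1 (range over all pairs -0.14 to 0.28). These correlations cannot settle whether samples were paired. With a replicate block 1 member was called between ages, where Ctss was lost, and 1 in the interaction of cell type and genotype, where Cd68 was lost (1.08, adjusted p = 0.0550, edgeR). Cx3cr1 between ages was then at -4.21. Under the block 5 log2 values changed sign, namely Ly6c2 (0.81) and Cd68 (0.038) in M-HSCs and Fcgr1 (-0.070), Adgre1 (0.023) and Ctss (-0.0060) in the interaction of age and genotype.

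Lyz2 between ages turned negative with DESeq2 (-0.0042), RLE factors (-0.0041) and upper-quartile factors (-0.072). With a library left out, the values that changed sign were all of members not called in that comparison. Their log2 values ran from -0.56 to 0.22 (Cx3cr1) and -0.26 to 0.33 (Fcgr1) in Y-HSCs, from -0.14 to 0.012 (Cd68), -0.064 to 0.59 (Ctss) and -0.84 to 0.22 (F13a1) in M-HSCs, from -0.21 to 0.65 (Ly6c2) in MPP3, and for Lyz2 from -0.15 to 0.063 between cell types and -0.027 to 0.10 between ages. In the interaction with age they ran from -2.08 to 0.76 (Fcgr1), -1.08 to 0.18 (Adgre1), -0.36 to 0.39 (Ctss) and -0.15 to 0.87 (F13a1), and in that with cell type from -0.94 to 0.26 (Ly6c2).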
